A study of Sparus aurata with 30 samples.

Results

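The effect of brewer's spent dry yeast (SDY) on transcript levels was examined in the intestine of Sparus aurata, the gilthead sea bream of Mediterranean aquaculture. Of the 30 RNA-seq libraries of the series, the 10 labelled intestine were taken by their tissue and diet labels, 5 from fish on the control diet and 5 from fish on the SDY diet. The other 20 came from liver and head kidney. They served for the contrast between tissues, for levels set beside those of intestine and for an alternative fit with a shared spread. The SDY diet held 30% dried spent yeast, added at the expense of plant proteins (31.4%) and fish meal (10%) of the control diet. RNA came from 5 specimens picked at random. The labels give no age, sex, tank, feeding time or region of the gut, and do not say which libraries share a fish. The p-values below therefore measure the spread between these libraries, and a tank effect or a difference in the piece of gut taken cannot be told apart from diet.

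The fish intestine is a folded epithelium of absorptive enterocytes, with mucus-secreting goblet cells and hormone cells, renewed from dividing cells at the base of the folds. Beneath it lie connective tissue, vessels, smooth muscle and the enteric nervous system, together with many immune cells. Yeast brings beta-glucans and mannans of its cell wall and much nucleic acid, and is used in fish feeds as a protein source. Beta-glucans are known to stimulate innate immune cells. In bulk tissue, fewer cells of a type and less RNA per cell cannot be told apart.

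The 10 libraries held 15566900 to 20580440 counts, so depth differed little between them. The labelled tissue matched its markers, at 1173 to 2520 CPM (counts scaled to the library total) for the brush border cadherin gene cdhr2, 793 to 3455 for the fatty acid binding protein gene fabp2 and 203 to 293 for the intestinal homeobox gene cdx1b. The catecholamine gene th and the trypsin gene prss1, markers of other organs, had 0 counts throughout. However, prss1 reached only 0.492 CPM in liver controls and th only 0.125 CPM in head kidney controls. In head kidney under SDY, th had a median of 2.86 CPM and reached 18.3 CPM. Other such markers were detected in intestine controls, with up to 1100 CPM for cpb1 of the pancreas and 21.5 CPM for fga of the liver. The 0 counts thus do not show that other organs were absent. Markers without a match in the files, vil1 and apoa4 among them, were not analysed here. The diets were interleaved along the first principal component of the 2000 most variable genes, which carried 37.9% of the variance. They also overlapped on the second (14.3%). On the third (9.44%), controls lay at 3.10 to 28.4 and SDY libraries at -37.1 to 8.12, with only SDY replicate 2 above a control. Control replicate 4 lay at the far end of the first component, at 77.2, with the other controls between -51.9 and 10.1. SDY replicates 4 and 1 were nearest to that library, at 49.7 and 30.5. The mean Spearman correlation of that library to the other controls was 0.891, against 0.933 to 0.942 for the rest, and its 20 most abundant genes took 7.31% of counts, against 9.63% to 18.9% in the other 9 libraries. Control replicate 2 carried transcripts of exocrine pancreas, with 1374 CPM summed over that list, against 3.55 to 136 CPM in the other controls and 4.6 to 283 CPM under SDY. Many of the results that rest on these libraries are given with and without them.

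**Figure D1:**
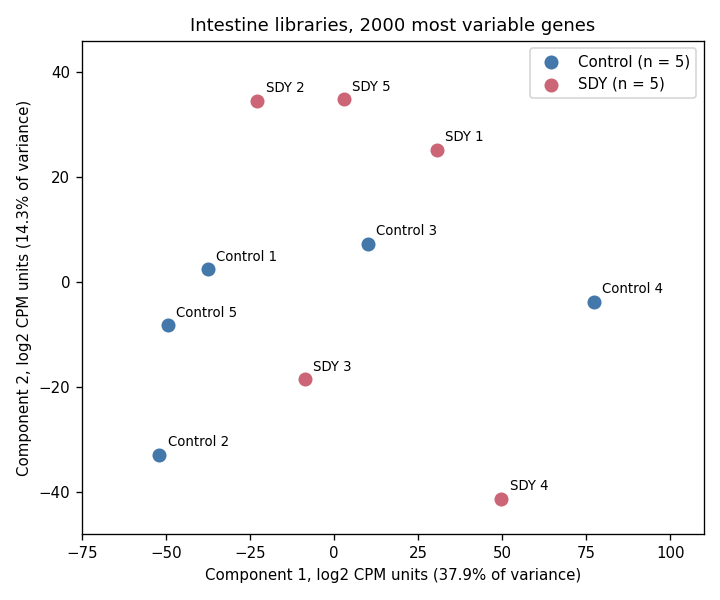
Principal components of log2 CPM over the 2000 most variable genes in the 10 intestine libraries, one point per library, blue for control and red for SDY. Control replicate 4 lies at 77.2 on the first component, beyond all SDY libraries, and the diets are interleaved along that axis.

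No single gene passed the test. Of 18221 genes tested, 0 (0%) had an edgeR adjusted p under 0.05, and the lowest adjusted p was 0.726. At an unadjusted p under 0.05, edgeR had 296 genes higher under SDY (1.62%) and 889 lower (4.88%). The 5 SDY values lay wholly above the 5 control values for 30 genes (0.165%) and wholly below for 121 (0.664%). Of all genes tested, 48.1% had a log2 fold change above 0 and 51.9% below, with a median of -0.01 and quartiles of -0.21 and 0.15. DESeq2, run as an alternative, called 55 genes, 31 higher (0.145% of 21342 with an adjusted p) and 24 lower (0.112%). Of these 55, 46 were tested by edgeR too, all in the same direction and at an unadjusted p under 0.05, and 26 of them had groups that did not overlap. Both tools read the same counts, so this follows from how the 55 were picked and is no separate support. At the unadjusted threshold DESeq2 had 506 genes higher and 1027 lower, so by both tools more genes lay on the lower side there. Without control replicate 4, edgeR had 1933 genes (10.5% of 18414) higher and 1704 (9.25%) lower at an unadjusted p under 0.05, and 0 at the adjusted threshold. Single genes are named below by rank of p, by size of the difference and by list, and list members beyond the first 3 were chosen after their values were seen. Gene levels are CPM scaled by TMM, a normalization to a common reference library.

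Among the named genes higher under SDY, the smallest p belonged to abhd4, which in mammals encodes a hydrolase of N-acyl phospholipids (chromosome 21, 8485413 to 8491717, plus strand, assembly fSpaAur1.1, as are all positions here). It had 10.6, 7.75, 10.3, 11.7 and 8.66 CPM in control replicates 1 to 5 and 13.8, 17.5, 15.3, 19.1 and 18.2 CPM in SDY replicates 1 to 5. The groups did not overlap, and the log2 fold change was 0.77 (SE 0.15), with an edgeR adjusted p of 0.726 and a DESeq2 adjusted p of 0.00553. The gene lgals3bp (chromosome 23, 18045562 to 18049118, minus strand) encodes a secreted glycoprotein that binds galectins and is interferon-inducible in mammals. Its values were 66, 45.9, 77, 72.1 and 50.1 CPM in the controls and 173, 82.8, 169.8, 92.8 and 233 CPM under SDY, in replicate order. All SDY values lay above all control values, but SDY replicates 2 and 4 lay close to the control range, and the log2 fold change was 1.27 (SE 0.29), with a DESeq2 adjusted p of 0.0268. For fam3c, a secreted protein of the FAM3 family (chromosome 14, 17153547 to 17160648, plus strand), the levels were 64 ± 8.79 CPM on the control diet and 99 ± 16.6 CPM on SDY (mean ± SD, n = 5 a diet). Its log2 fold change of 0.63 (SE 0.15) had a DESeq2 adjusted p of 0.0395, again without overlap of the groups.

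Other leading genes on this side act in sugar and nucleotide metabolism, nutrient sensing and protein breakdown. The gene ugdh, whose enzyme makes the UDP-glucuronate used for glycosaminoglycans and for glucuronidation, had 47.3, 48.7, 55.8, 91.5 and 79 CPM in control replicates 1 to 5 and 119, 234, 194, 61.7 and 241 CPM in SDY replicates 1 to 5. SDY replicates 2, 3 and 5 stood highest, replicate 4 lay within the control range, and the log2 fold change was 1.40 (SE 0.36). The levels of psmf1, a regulator of the proteasome known as PI31, were 33.8 ± 9.33 CPM on the control diet and 58 ± 9.07 CPM on SDY (mean ± SD, n = 5 a diet), with a log2 fold change of 0.78 (SE 0.20) in which only SDY replicate 1 and control replicate 4 crossed. For nampt2, a copy of the NAD salvage enzyme gene, the levels were 90.4 ± 38.8 CPM on the control diet and 182 ± 47.3 CPM on SDY (mean ± SD, n = 5 a diet), with overlapping groups at a log2 fold change of 1.01 (SE 0.30). The Rag GTPase gene rragc, which relays amino acid supply to mTORC1, showed a small difference with narrow spread, 41 ± 3.24 CPM on the control diet and 51.4 ± 3.82 CPM on SDY (mean ± SD, n = 5 a diet). The groups did not overlap, at a log2 fold change of 0.33 (SE 0.10). Further genes of the same rank were tmt1a.1 (0.77), slc35e3 (0.83), cables2b (1.98), the mitochondrial carrier slc25a55a (0.45) and the nucleoside diphosphate kinase family gene nme7 (0.73), given as log2 fold changes, and only tmt1a.1 and nme7 among them had no overlap. The span of cables2b overlaps another gene, so its reads are uncertain. The DESeq2 call samd3 was not tested by edgeR because it was low in most libraries, with 435, 391 and 76 raw counts in SDY replicates 1, 2 and 5 and at most 3 in the other 7 libraries.

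Among unnamed genes, LOC115585885 (chromosome 1, 23868930 to 23870801, minus strand) had 0.242, 1.34, 1.36, 2.15 and 1.06 CPM in control replicates 1 to 5 and 72.7, 5.84, 34.9, 3.26 and 32.2 CPM in SDY replicates 1 to 5. It was the gene with the lowest DESeq2 adjusted p, 9.77e-06, with a log2 fold change of 4.57 (SE 0.88) by edgeR. The higher level was carried by SDY replicates 1, 3 and 5, and the span overlaps LOC115585844. LOC115573101 (chromosome 21, 30408341 to 30411204, plus strand) had a log2 fold change of 1.33 (SE 0.26) and no overlap.

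On the lower side, gdpd4b, of the glycerophosphodiester phosphodiesterase family (chromosome 13, 26072204 to 26082428, plus strand), had 12.3, 13, 8.88, 5.91 and 16.4 CPM in control replicates 1 to 5 and 3.75, 2.71, 3.85, 3.15 and 4.46 CPM in SDY replicates 1 to 5. The lowest control, replicate 4, lay above the highest SDY library. The log2 fold change was -1.65 (SE 0.27), with an edgeR adjusted p of 0.726 and a DESeq2 adjusted p of 0.000166. The tetraspanin gene tspan2a had 7.01, 6.89, 6.61, 4.81 and 7.78 CPM in the controls and 4.4, 3.96, 3.19, 3.15 and 3.27 CPM under SDY, in replicate order. The difference on the log2 scale was -0.88 (SE 0.18), and control replicate 4 was again the lowest control. The calcineurin-regulated transcription factor gene nfatc4 had 18.4, 13.4, 15.7, 10.8 and 14.6 CPM in the controls and 8.33, 9.39, 7.76, 9.61 and 8.5 CPM under SDY, in replicate order. Its SDY libraries spanned a narrow range below all controls, for a log2 difference of -0.74 (SE 0.16). For fam189a1 the levels were 6.78 ± 2.72 CPM on the control diet and 1.68 ± 0.715 CPM on SDY (mean ± SD, n = 5 a diet), without overlap and at a log2 fold change of -2.01 (SE 0.42).

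Several of the leading lower genes belong to matrix, vessel wall and nerve. The extracellular matrix gene abi3bpa had 178 ± 18.1 CPM on the control diet and 115 ± 19.2 CPM on SDY (mean ± SD, n = 5 a diet), a log2 fold change of -0.64 (SE 0.14). The pericyte receptor gene pdgfrb (chromosome 18, 23762514 to 23798138, minus strand) had 35, 37.5, 30.8, 30.8 and 29.8 CPM in the controls and 25.8, 23.6, 21.3, 23.9 and 19.3 CPM under SDY, in replicate order. Each SDY library lay below each control, and the log2 fold change was -0.52 (SE 0.12), with a DESeq2 adjusted p of 0.0292. The gene ndrg4, known from enteric neurons in mammals, had 24 ± 7.19 CPM on the control diet and 12.1 ± 2.66 CPM on SDY (mean ± SD, n = 5 a diet) and a log2 fold change of -0.99 (SE 0.23). The angiogenesis inhibitor gene vash1 (-0.98), the Rap GTPase regulator gene sipa1l1 (-0.89), the sodium pump partner gene nkain1 (-0.76) and the neuronal gene sez6 (-1.87) likewise had no overlap, with log2 fold changes in brackets. The sialyltransferase gene st6gal1 had 9.18, 7.81, 8.37, 9.62 and 9.78 CPM in the controls and 2.31, 7.02, 1.86, 2.26 and 1.87 CPM under SDY, in replicate order. Here 4 SDY libraries lay near 2 CPM and replicate 2 lay just under the controls. With every library kept, st6gal1 differed by -1.55 (SE 0.37) on the log2 scale, at an edgeR adjusted p of 0.726. Leaving out SDY replicate 2 gave -2.09 and an edgeR adjusted p of 0.00478. That step removes the SDY value nearest to the controls, so the smaller p follows from the choice of library and is no separate support. The peroxisomal oxidase gene hao2 (-2.56) and the retinoic acid receptor gene rarb (-2.98) were DESeq2 calls whose groups overlapped. Control replicate 4 alone reached 16 CPM for hao2, whose log2 fold change was -1.75 without that library. Control replicates 3 and 4 alone reached 22.3 and 17.4 CPM for rarb, whose span overlaps another gene. The genes cfap299 (-1.46, in a span that overlaps other genes) and jakmip2 (-1.35) had no overlap. Of the unnamed genes, LOC115582649 (chromosome 1, 31211443 to 31273889, plus strand) had the smallest p of all, 4.99e-05 by edgeR before adjustment, at a log2 difference of -2.05 (SE 0.31). Its span overlaps LOC115582633. LOC115589080 (chromosome 10, 10514318 to 10518265, minus strand) had -1.29 (SE 0.26).

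**Figure D2:**
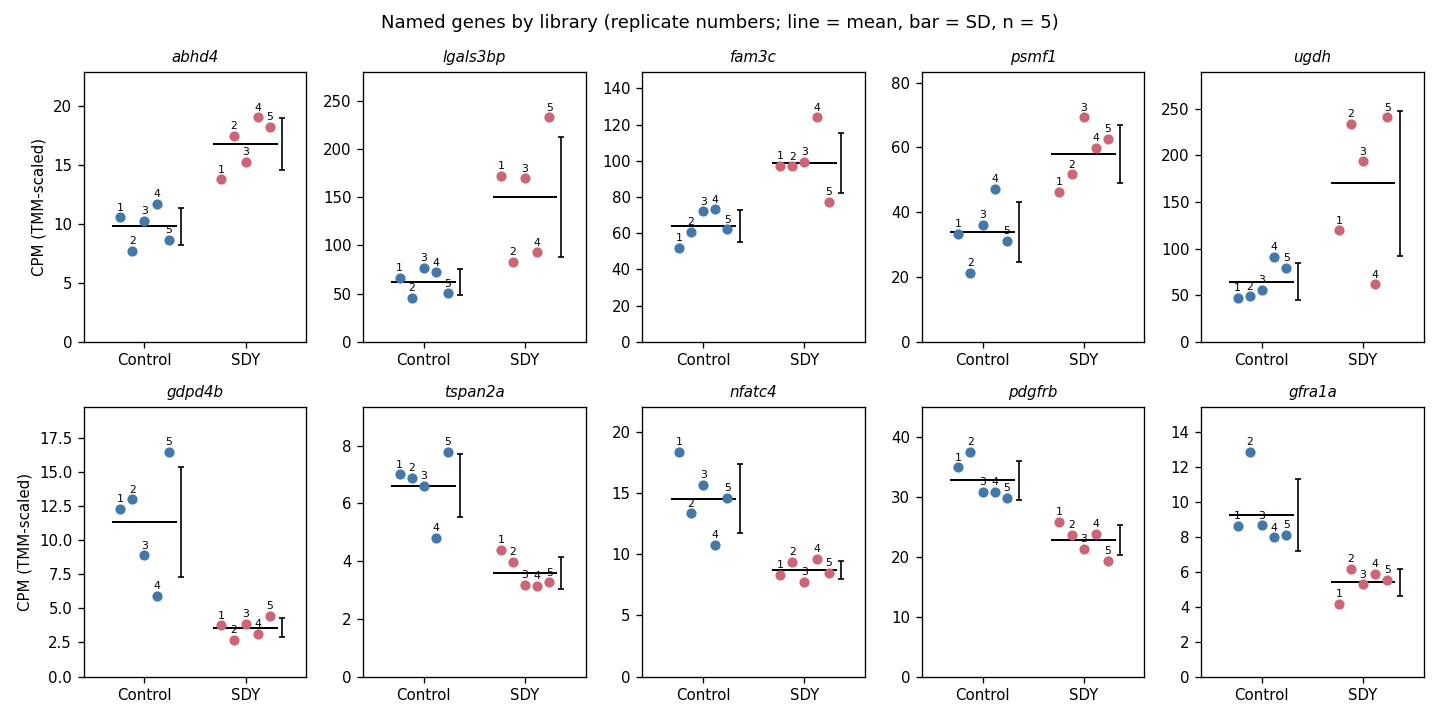
TMM-scaled CPM of 10 named genes in each intestine library, controls in blue and SDY in red, numbered by replicate, with the mean (line) and SD (bar), n = 5. The top row holds genes with higher and the bottom row genes with lower means under SDY, and the groups overlap for psmf1 and ugdh only.

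Gene groups were then read as 51 lists matched by symbol, each described by its tested members beside all genes tested. No member of any list passed the edgeR threshold. The largest median log2 fold change above 0 was that of the interferon response (0.54) and, among lists with at least 10 tested members, the lowest was that of enteric neurons and glia (-0.66). Without control replicate 4, DNA replication and mitosis moved from 0.17 to 1.31 and the proteasome from 0.39 to 0.82.

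**Figure D3:**
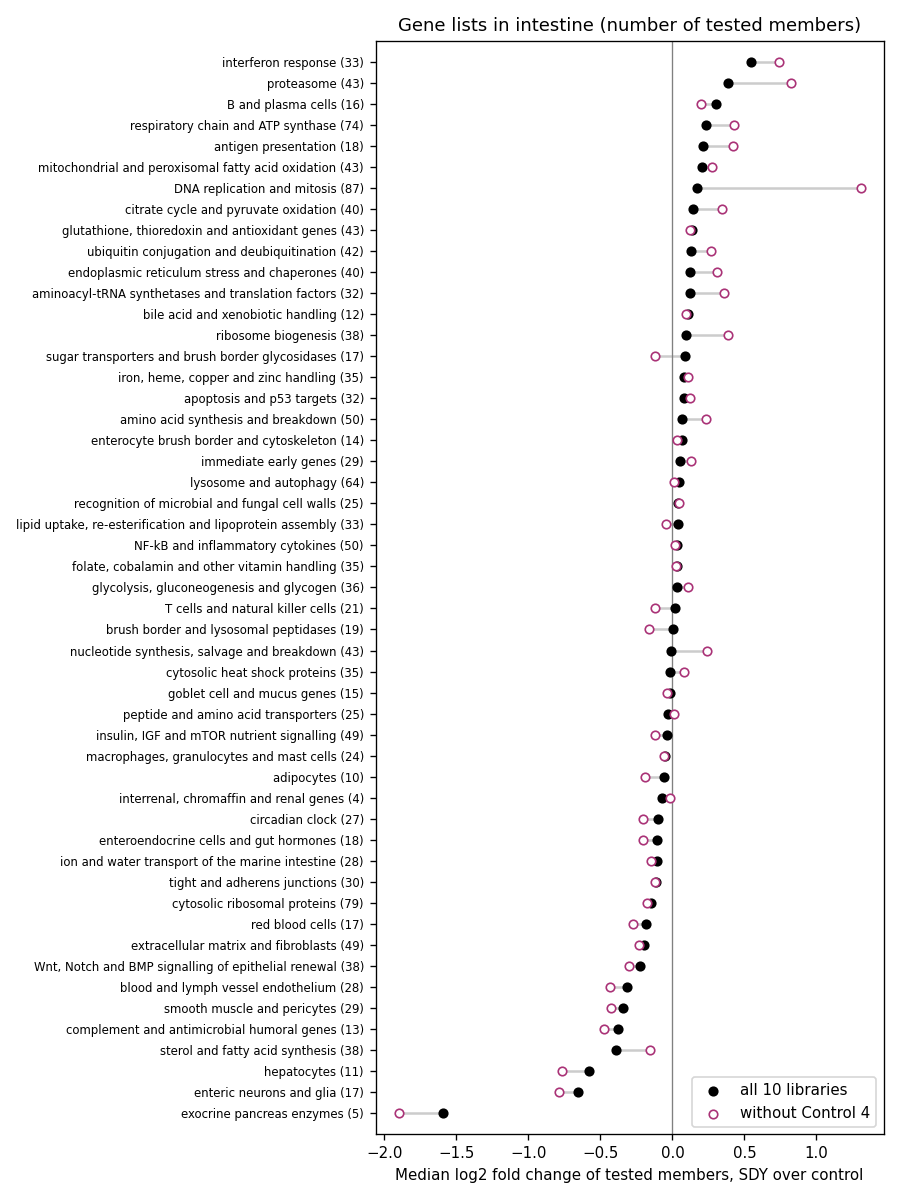
Median log2 fold change (SDY over control) of the tested members of 51 gene lists in intestine, with the number tested in brackets. Filled points use all 10 libraries and open points leave out control replicate 4. This moves DNA replication and mitosis from 0.17 to 1.31 and the interferon list from 0.54 to 0.74.

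Genes of the interferon response, the antiviral programme set off by RNA and DNA sensors, lay above 0 in 30 of 33 tested members, with a median log2 fold change of 0.54. Of these, 11 had an unadjusted edgeR p under 0.05 on the higher side, against 1.62% of all genes, and 1 had no overlap, against 0.165%. The list has 36 members in the files. Its median ranged from 0.42 to 0.76 over the 19 alternatives, and without control replicate 2 the number at an unadjusted p under 0.05 was 6 (background 1.32%). The member without overlap was epsti1, an interferon-induced gene in mammals, with 42.8, 20.8, 40.2, 45.6 and 28 CPM in control replicates 1 to 5 and 58.8, 53.5, 90.4, 50.8 and 80.9 CPM in SDY replicates 1 to 5. Its log2 fold change was 0.91 (SE 0.25), with an edgeR adjusted p of 0.726.

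Among the sensors, ifih1 (the RNA helicase MDA5) had 108, 46.5, 65.6, 80.8 and 64.7 CPM in the controls and 88.6, 123, 167, 90.8 and 139 CPM under SDY, in replicate order. SDY replicates 2, 3 and 5 lay above all controls, and SDY replicates 1 and 4 lay below control replicate 1. The helicase gene dhx58, also known as LGP2, had a log2 fold change of 1.01 (SE 0.41), and znfx1, a sensor of viral RNA on mitochondria in mammals, had 233, 60.6, 91.2, 100.4 and 115 CPM in the controls and 182, 272, 408, 133 and 362 CPM under SDY, in replicate order. The same SDY libraries stood highest for znfx1, and its log2 fold change was 1.18 (SE 0.40). Among the signal carriers, stat1a had 151, 84, 141, 207 and 105 CPM in the controls and 202, 189.8, 248, 223 and 198 CPM under SDY, in replicate order. SDY replicates 3 and 4 lay above all controls and the other SDY libraries just under control replicate 4, with a log2 fold change of 0.63 (SE 0.23). Its partner stat2 (0.88, SE 0.35) and the upstream factor irf3 (1.0, SE 0.40) lay on the same side. The effectors cmpk2 (1.24, SE 0.48), rnf213 (0.70, SE 0.27), rnf213b (1.08, SE 0.48) and helz2 (0.80, SE 0.35) had an unadjusted edgeR p under 0.05 as well. The antiviral gene rsad2, viperin, had 42, 1.59, 6.91, 3.67 and 8.5 CPM in the controls and 10.5, 25, 49.1, 6.41 and 38.2 CPM under SDY, in replicate order. Control replicate 1 lay between SDY replicates 3 and 5 for rsad2, and its log2 fold change of 1.04 had an SE of 0.84. The members below 0 were irf7 (-0.04), irf2 (-0.12) and cgas (-0.29).

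The interferon members differed in which libraries were high. For znfx1, stat2, helz2, rnf213b and cmpk2, SDY replicates 2, 3 and 5 and control replicate 1 were the highest of the 10, and SDY replicate 4 lay in the control range. For uba7, tmem173 and samhd1, control replicate 4 and SDY replicate 4 were the highest pair. The gene uba7, whose enzyme activates ISG15, had 46.3, 28.7, 102, 247 and 35 CPM in the controls and 140.2, 77.1, 155, 253 and 105 CPM under SDY, in replicate order. All 10 libraries gave a log2 fold change of 0.67 (SE 0.59), and leaving out control replicate 4 gave 1.46. For tmem173, the DNA sensing adaptor STING, these values were 0.54 and 1.66, and for samhd1, a dNTP hydrolase, 0.25 and 1.39. Leaving out only the control of this pair takes away the highest control value and keeps the highest SDY value. The larger values are therefore no measure of a diet effect, and values without SDY replicate 4 are not given for these genes. Summed over the list, the members had 3100.1, 2075, 2999, 4011 and 2122 CPM in control replicates 1 to 5 and 4154, 3107, 4841, 4110.2 and 4443 CPM in SDY replicates 1 to 5, CPM here being relative to the plain library total. Control replicate 4 was the only control above an SDY library, replicate 2.

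**Figure D4:**
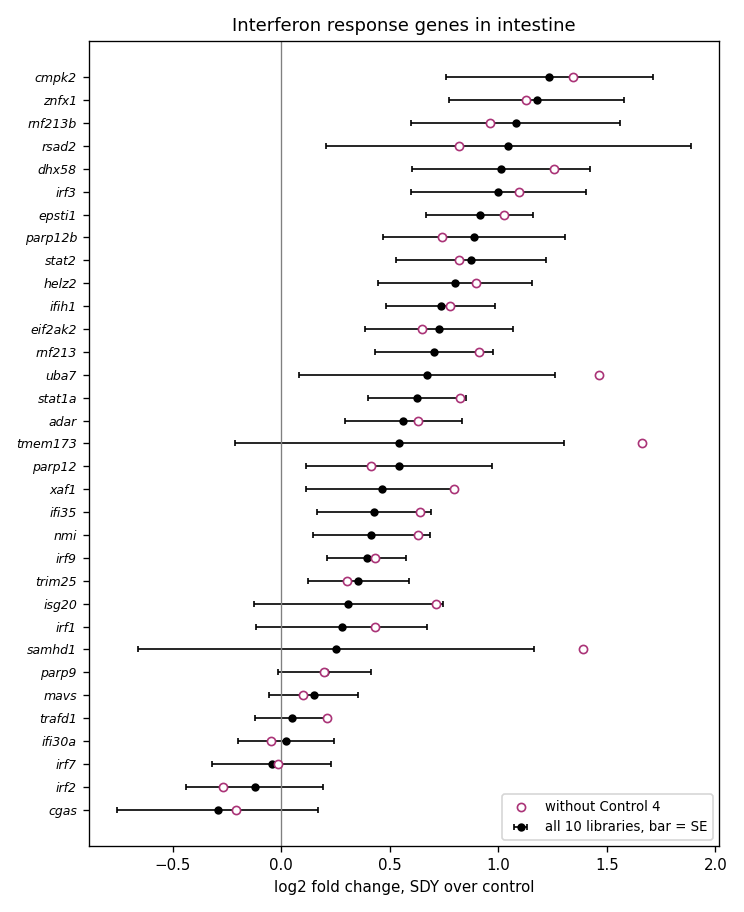
Log2 fold change (SDY over control) of the 33 tested interferon response genes in intestine, filled points with SE bars for all 10 libraries and open points without control replicate 4. Points run from cmpk2 at 1.24 to cgas at -0.29, and the open points of uba7, tmem173 and samhd1 lie furthest from the filled ones.

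Antigen presentation genes lay above 0 in 16 of 18 members with a median of 0.21. The median was 0.42 without control replicate 4 and 0.13 without SDY replicate 1. None of them had an unadjusted edgeR p under 0.05, and 4 did without control replicate 4 (background 10.5%). The peptide transporter gene tap1 had 21.9, 25.7, 56.9, 80.4 and 20.5 CPM in the controls and 75.8, 25.6, 45.5, 112 and 28.3 CPM under SDY, in replicate order, with SDY replicates 1 and 4 and control replicates 3 and 4 high and a log2 fold change of 0.48 (SE 0.51). The subunit gene psmb10 of the immunoproteasome had 0.37 (SE 0.40).

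B cell genes rested on SDY replicate 1. All 16 tested members lay above 0 with a median of 0.30, but none had an unadjusted edgeR p under 0.05. The B cell receptor gene cd79a had 9.6, 10.8, 8.42, 6.5 and 9.55 CPM in control replicates 1 to 5 and 28, 5.42, 9.62, 6.09 and 5.75 CPM in SDY replicates 1 to 5. The B cell factor gene pax5 followed the same pattern, with 28 CPM in SDY replicate 1, 4.1 to 8.48 CPM in the other SDY libraries and 5.74 to 10.2 CPM in controls. Without SDY replicate 1, the list median was -0.07 and 5 members lay above 0. The receptor gene pigr, which carries antibodies across the epithelium, had 20.8, 19.8, 18.3, 19 and 15.1 CPM in the controls and 20.7, 17, 96.2, 18 and 33.7 CPM under SDY, in replicate order. It was high in SDY replicates 3 and 5 rather than 1. The chemokine gene cxcl13, which draws B cells into follicles, reached 51 CPM in SDY replicate 1, while the rest of that group had 1.81 to 5.91 CPM and the controls 0.915 to 4.44 CPM. Its log2 fold change was 2.63 (SE 0.95) and 0.78 without that library. The chemokine gene ccl19a.1 went from 1.06 to 0.51 in the same way. The T cell costimulator gene cd28 had 2.26 ± 0.523 CPM on the control diet and 4.32 ± 2.12 CPM on SDY (mean ± SD, n = 5 a diet) and a log2 fold change of 0.94 (SE 0.38), while the T and natural killer cell list as a whole had a median of 0.02 (12 of 21 above 0), which turned to -0.12 without control replicate 4. The summed level of that list was highest in SDY replicate 1 too, at 1053 CPM, the rest of the SDY libraries having 484 to 743 CPM and the controls 574 to 761 CPM.

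Genes that recognise microbial and fungal cell walls lay on both sides. Their median was 0.04, with 13 of 25 members above 0. The receptor gene tlr3, which binds viral RNA rather than wall sugars, was the only member with an unadjusted edgeR p under 0.05, with 17.6 ± 2.13 CPM on the control diet and 23.9 ± 5.47 CPM on SDY (mean ± SD, n = 5 a diet) and a log2 fold change of 0.44 (SE 0.17). The adaptor gene myd88 had 0.09 (SE 0.12). The chitinase gene chia.1 varied widely, with 5323, 3562, 7518, 170.3 and 10675 CPM in the controls and 6649, 10035, 12507, 5346 and 4721 CPM under SDY, in replicate order. Control replicate 4 stood lowest, and the diets overlapped with a log2 fold change of 0.53 (SE 0.74). Inflammatory and NF-kB genes had a median of 0.03 (29 of 50 above 0). Beside the chemokines cxcl13 and ccl19a.1, ikbke, a kinase that acts on interferon regulatory factors, had 28.4 ± 1.64 CPM on the control diet and 33.3 ± 2.71 CPM on SDY (mean ± SD, n = 5 a diet). Its groups did not overlap, though the log2 fold change was 0.23 (SE 0.10). Macrophage and granulocyte genes had a median of -0.05, and the neutrophil receptor gene cxcr2, at under 3 CPM in every library, had a log2 fold change of -0.95 (SE 0.40). Complement and antimicrobial humoral genes were below 0 for 11 of 13, and the median of -0.38 became -0.14 without control replicate 2.

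Proteasome subunits, which form the particle that degrades ubiquitin-tagged proteins, lay above 0 in 41 of 43 members with a median of 0.39, but psmf1 alone had an unadjusted edgeR p under 0.05. Summed over 45 members, the level was 1850.5, 2031, 3254, 7432 and 1898 CPM in control replicates 1 to 5 and 4826, 2611, 2896, 6766 and 4191 CPM in SDY replicates 1 to 5. Control replicate 4 had the highest value of all, and the other controls lay below the median SDY library. Without that library the median was 0.82 and 39 of 43 members had an unadjusted edgeR p under 0.05 on the higher side, against a background of 10.5%. The catalytic subunit gene psmb5, for example, went from 0.33 to 0.91. Without SDY replicate 4, the other library with a high level, the median was 0.23.

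Genes of dividing cells depended on that control library more than any other list did. DNA replication and mitosis genes had a median of 0.17 with 78 of 87 members above 0 and none at an unadjusted edgeR p under 0.05. The proliferation marker gene mki67 had 11.8, 5.67, 48, 146 and 7.39 CPM in control replicates 1 to 5 and 66.3, 18.6, 30.2, 98.4 and 27.2 CPM in SDY replicates 1 to 5. Control replicate 4 was the highest library and control replicates 1, 2 and 5 the lowest. All 10 libraries gave a log2 fold change of 0.14 (SE 0.87), and leaving out control replicate 4 gave 1.40. The replication clamp gene pcna went from 0.24 to 1.12 and the helicase subunit gene mcm5 from 0.47 to 1.47. Over the list, the median without control replicate 4 was 1.31, with 46 of 87 members at an unadjusted edgeR p under 0.05 on the higher side, against a background of 10.5%. Transcripts of absorptive cells were low in control replicate 4, with 6331 summed CPM of lipid absorption genes against at least 25669 CPM in the other controls, and their part in these values was not tested. Left out instead, SDY replicate 4 turned the median to -0.07.

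Mitochondrial genes depended on it too. Respiratory chain and ATP synthase genes lay above 0 in 70 of 74 members, with a median of 0.24 that ranged from 0.19 to 0.43 over the alternatives. At an unadjusted edgeR p under 0.05 on the higher side, 2 members stood with all libraries (background 1.62%) and 52 without control replicate 4 (background 10.5%), when the median was 0.43. The complex I gene ndufv1 had 80.6, 72.6, 95.7, 119 and 78 CPM in the controls and 96.9, 109.6, 123, 124 and 115 CPM under SDY, in replicate order. The groups overlapped through control replicate 4, and its log2 fold change was 0.35 (SE 0.15). The complex IV gene cox6b1 had 0.45 (SE 0.19). Citrate cycle and pyruvate oxidation genes had a median of 0.14 (31 of 40 above 0), and fatty acid oxidation genes had 0.20 (31 of 43 above 0). The citrate cycle median without control replicate 4 was 0.35 and the members on the higher side at such a p went from 1 to 16, and for fatty acid oxidation the median was 0.27 and the count went from 3 to 12. With all libraries, in the latter list, etfa (0.34, SE 0.13), hadh (0.47, SE 0.19) and acadvl (0.55, SE 0.23), which serve the beta-oxidation of fatty acids, had an unadjusted edgeR p under 0.05, and cpt1b, the muscle form of the carnitine transferase, lay below 0 (-0.77, SE 0.33). The span of etfa overlaps tmem266. The cytosolic aconitase gene aco1 had 0.54 (SE 0.23).

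Protein synthesis and folding genes showed small medians. Ubiquitin conjugation genes had 0.13 and chaperones of the endoplasmic reticulum 0.12, with 33 of 40 members above 0. Among these, the co-chaperone gene dnajc3b had 38.5, 32.1, 37.9, 59.9 and 36.2 CPM in the controls and 96.7, 46.9, 59.8, 54.4 and 65.8 CPM under SDY, in replicate order. SDY replicates 1 and 5 lay above the highest control, replicate 4, and the log2 fold change was 0.66 (SE 0.22). Aminoacyl-tRNA synthetases and translation factors had a median of 0.12, ribosome biogenesis 0.10 and cytosolic heat shock proteins -0.02. Without control replicate 4 these 5 medians were 0.27, 0.31, 0.36, 0.38 and 0.08. Then 16, 13, 12, 9 and 8 of their members were higher at an unadjusted edgeR p under 0.05, against a background of 10.5%. Left out instead, SDY replicate 4 turned the synthetase and translation factor median to -0.06 and gave -0.08 for heat shock proteins. The lowest medians over the 19 alternatives were 0.06 for ubiquitin conjugation, 0.09 for chaperones and 0.02 for ribosome biogenesis. Cytosolic ribosomal proteins numbered 76 of 79 below 0, their median was -0.15, and none had an unadjusted edgeR p under 0.05. Their summed level was 69239.9 CPM in control replicate 2 and 43397 to 54868 CPM in the other controls, against 42539.6 to 56525 CPM under SDY. Without control replicate 2 the median was -0.05.

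**Figure D5:**
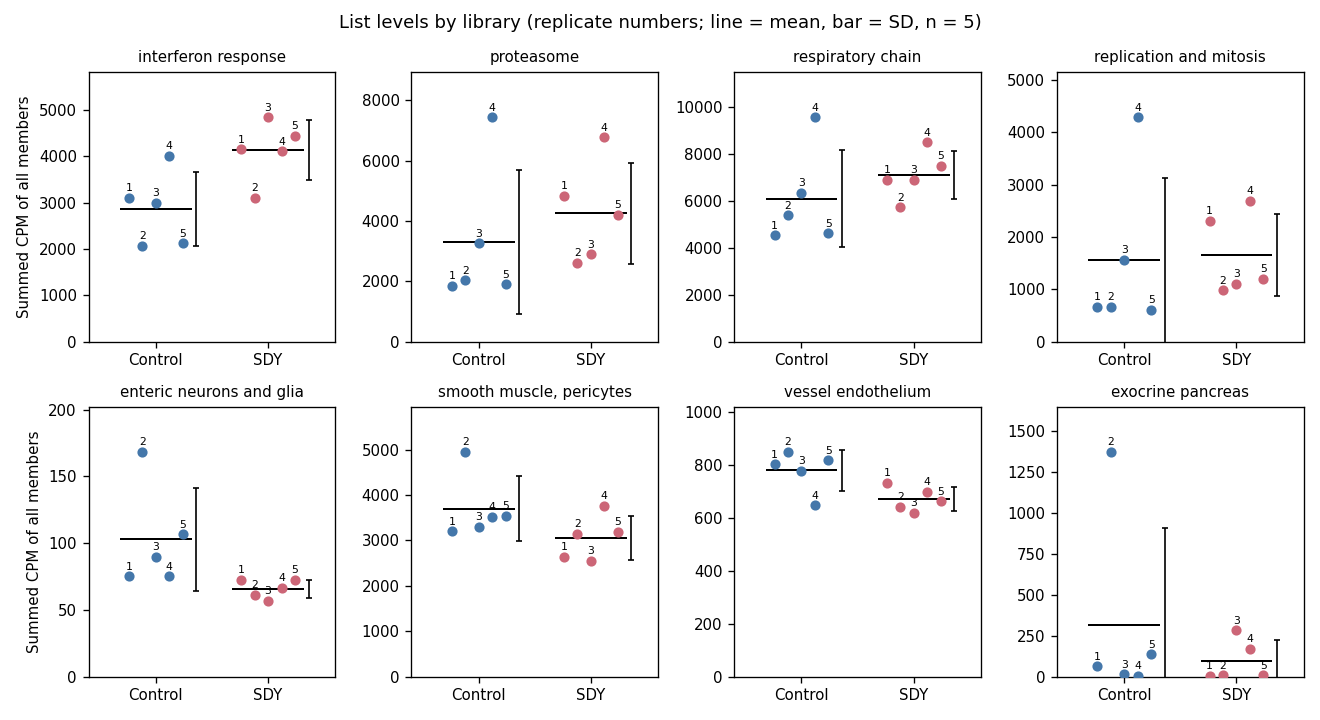
Summed CPM (relative to the plain library total) of 8 gene lists in each intestine library, controls in blue and SDY in red, numbered by replicate, with the mean (line) and SD (bar), n = 5. Control replicate 4 is highest for the proteasome, the respiratory chain and DNA replication and mitosis, and control replicate 2 for enteric neurons, smooth muscle and exocrine pancreas.

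Genes of the gut wall lay on the lower side under SDY. Enteric neuron and glia genes lay below 0 in 16 of 17 tested members, with a median of -0.66. Of these, 10 had an unadjusted edgeR p under 0.05, against 4.88% of all genes, and 1 had no overlap, against 0.664%. The list has 30 members, of which 13 were too low to test. The member without overlap was gfra1a, a receptor for the neurotrophic factor GDNF, with 8.64, 12.9, 8.67, 7.97 and 8.11 CPM in control replicates 1 to 5 and 4.16, 6.19, 5.29, 5.88 and 5.55 CPM in SDY replicates 1 to 5. This gave a log2 fold change of -0.77 (SE 0.18). The neuronal nitric oxide synthase gene nos1, whose product relaxes gut muscle, had 6.22, 12.9, 6.86, 6.24 and 9.66 CPM in the controls and 5.14, 5.14, 5.71, 4.89 and 6.32 CPM under SDY, in replicate order. SDY values of nos1 lay within a narrow range, and SDY replicate 5 alone crossed the lowest control, for a log2 fold change of -0.62 (SE 0.23). The synaptic gene syt1 (-0.66, SE 0.26), the axonal genes stmn2a (-0.88, SE 0.33) and prph (-0.76, SE 0.30), the RNA-binding protein gene elavl4 (-0.86, SE 0.37) and the adhesion gene l1cama (-0.78, SE 0.28, whose span overlaps ribc1) lay on the same side. The peptide transmitter gene vip, here in the gut hormone list, had 15.5, 49.9, 28.1, 24.9 and 32 CPM in the controls and 14.9, 14.2, 15.3, 14.7 and 23.7 CPM under SDY, in replicate order. All SDY libraries but replicate 5 lay below the lowest control, replicate 1, and the log2 fold change was -0.86 (SE 0.28).

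Control replicate 2 was the highest library for most of these genes. Summed over the neuron list, levels were 75.1, 168, 89.6, 75.1 and 106 CPM in control replicates 1 to 5 and 72.3, 61.5, 56.8, 66.3 and 72.3 CPM in SDY replicates 1 to 5. The groups did not overlap in the sum, though control replicates 1 and 4 lay close to the highest SDY library. The same list summed to a median of 115 CPM in liver controls, 97.4 CPM in liver under SDY and 89 CPM in head kidney under SDY. Its summed level is thus not particular to enteric nerves. Without control replicate 2, 15 of 18 members lay below 0, the median was -0.40, and 1 member had an unadjusted edgeR p under 0.05, against a background of 2.58%. Over all alternatives the median ranged from -0.79 to -0.40. That library also had the highest sum of exocrine pancreas genes, and the part of the sampled piece of gut in these values was not tested.

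Smooth muscle and pericyte genes numbered 28 of 29 below 0, their median was -0.34, and 12 had an unadjusted edgeR p under 0.05, against 4.88% of all genes. The groups did not overlap for 2 of them (background 0.664%), pdgfrb and casq2, a calcium store protein gene of muscle at under 1 CPM. The cytoskeletal gene synpo2a had 91.2, 132, 66.8, 67.3 and 106 CPM in the controls and 46.7, 74, 50.3, 57.9 and 37.7 CPM under SDY, in replicate order. SDY replicate 2 was the only SDY library above the lowest control, and the log2 fold change was -0.80 (SE 0.23). The integrin gene itga8 (-1.01, SE 0.31), the junction gene jph2 (-0.64, SE 0.23) and myocd (-0.53, SE 0.21), the master coactivator of smooth muscle genes, lay on the same side. The contractile genes themselves differed less relative to their spread, with myh11 at -0.34 (SE 0.21) and acta2 at -0.01 (SE 0.22). The list median was -0.43 without control replicate 4 and -0.27 without control replicate 2, when 7 members had an unadjusted edgeR p under 0.05, against a background of 2.58%.

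Endothelial genes of blood and lymph vessels lay below 0 in all 28 tested members, with a median of -0.31. The junction gene cdh5, VE-cadherin, had 15.8, 17.6, 13.8, 11.3 and 17.7 CPM in control replicates 1 to 5 and 12.4, 12.1, 12.5, 12.5 and 11.9 CPM in SDY replicates 1 to 5. The 5 SDY libraries of cdh5 lay close together, and control replicate 4 alone lay under them. Its log2 fold change was -0.31 (SE 0.14), and it and clec14a (-0.35, SE 0.15) were the members with an unadjusted edgeR p under 0.05. That is 2 of 28 members, against 4.88% of all genes lower at such a p. Without control replicate 4 the median was -0.43 and 16 members had an unadjusted edgeR p under 0.05, against a background of 9.25%. Without control replicate 2 there were 0. Extracellular matrix and fibroblast genes numbered 44 of 49 below 0, and their median was -0.20. The tenascin gene tnxba had 24.8, 3.9, 18.4, 6.07 and 10.6 CPM in the controls and 3.61, 4.45, 6.31, 2.36 and 3.89 CPM under SDY, in replicate order. Control replicates 1, 3 and 5 stood above all SDY libraries, and the log2 fold change was -1.63 (SE 0.48). The protease gene mmp2 (-0.55, SE 0.21) and its inhibitor gene timp2b (-0.59, SE 0.20), the collagen gene col16a1 (-0.71, SE 0.27) and the fibronectin gene fn1b (-1.17, SE 0.46) were with it 5 of the 7 members at an unadjusted edgeR p under 0.05. The background for these 7 of 49 members was 4.88% of all genes. SDY replicate 4 had the highest sum of this list, 3738 CPM, above all controls (2231 to 3079 CPM). The rest of the SDY libraries lay between 1744 and 1969 CPM. Without SDY replicate 4, such a p was held by 14 members, against a background of 3.61% (1.96% on the higher side). That step removes the highest SDY sum, so the larger count is no separate support. The list median was -0.34 without SDY replicate 4 and -0.14 without SDY replicate 1.

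Signals of epithelial renewal, many of them secreted by cells beneath the epithelium, numbered 29 of 38 below 0, with -0.23 as the median and 5 members at an unadjusted edgeR p under 0.05, against 4.88% of all genes. Without control replicate 4, 10 members had such a p (background 9.25%) and the median was -0.30. The Wnt antagonist gene sost had 20.8, 18.4, 18.9, 12.4 and 20.8 CPM in control replicates 1 to 5 and 10.5, 13, 8.96, 7.88 and 10.7 CPM in SDY replicates 1 to 5. Only control replicate 4 lay under an SDY library, and the log2 fold change was -0.84 (SE 0.18), with a DESeq2 adjusted p of 0.0292. The Wnt deacylase gene notum1a had 5.13, 16.5, 2.47, 7.97 and 12.1 CPM in the controls and 2.91, 1.46, 1.2, 3.52 and 3.47 CPM under SDY, in replicate order. The controls spread widely and overlapped the SDY libraries, and the log2 fold change was -1.80 (SE 0.51). The ligand gene bmp4 (-0.56, SE 0.19) and the receptor gene notch1 (-0.44, SE 0.18) lay on the same side. The Wnt agonist gene rspo1 had -0.65 (SE 0.30).

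The absorptive epithelium itself showed medians near 0 with all libraries. Brush border and cytoskeleton genes had 0.07, peptidases 0.00, sugar transporters and glycosidases 0.09, lipid uptake and lipoprotein assembly 0.04, and bile acid and xenobiotic handling 0.11. Without control replicate 4, the library low in absorptive transcripts, the sign turned for sugar genes (-0.12, 12 of 17 below 0) and lipid genes (-0.04, 20 of 33 below 0), and peptidases went to -0.17 (12 of 19 below 0). Without control replicates 2 and 4, the peptidase median was -0.29. The brush border and bile acid medians were 0.03 and 0.09 without control replicate 4. Among SDY libraries, replicate 4 had the lowest sum of lipid absorption genes. With that SDY library left out instead, the lipid median was 0.22 and the bile acid median 0.35. Levels in single libraries nevertheless differed widely. The peptide transporter gene slc15a1a, a copy of PepT1, had 1087, 564, 832, 92.4 and 932 CPM in control replicates 1 to 5 and 341, 1123, 580.3, 198 and 625 CPM in SDY replicates 1 to 5. Control replicate 4 stood lowest and SDY replicate 4 next, and the log2 fold change was -0.29 (SE 0.60). The copy slc15a1b was more abundant, with medians of 2935 CPM in controls and 2185 CPM under SDY, relative to the plain library total. Control replicate 4 was its lowest library too, at 713 CPM. The lipoprotein assembly gene mttp had 127, 195, 293, 372 and 168 CPM in the controls and 260.1, 272, 399.6, 305 and 744 CPM under SDY, in replicate order. SDY replicate 5 was the highest, and the log2 fold change was 0.78 (SE 0.37). Apart from control replicate 4, summed lipid absorption genes had 25669 to 42110.2 CPM in the other controls and 10102 to 42355 CPM under SDY. The glutathione transferase gene gsto1 (0.91, SE 0.37, overlapping itprip) was the only member of these 5 lists with an unadjusted edgeR p under 0.05. Its log2 fold change was 1.34 without control replicate 4.

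Peptide and amino acid transporters had a median of -0.03, with slc7a5 (-0.59, SE 0.22), slc38a3b (-1.20, SE 0.48) and the peptide transporter slc15a2 (-1.30, SE 0.52) on the lower side at an unadjusted edgeR p under 0.05. These were 3 of 25 tested members, against 4.88% of all genes lower at such a p. The gene slc38a3b had -0.77 without control replicate 5, its highest library. The gene slc15a2 had -0.92 without control replicate 4, its highest library. Ion and water transport genes, with which marine fish drink and absorb sea water, had a median of -0.11, and of -0.15 without control replicate 4. The sodium pump subunit gene atp1b1a had 58.8, 50.3, 48.3, 52 and 62.8 CPM in the controls and 116, 47.6, 168, 121 and 62.7 CPM under SDY, in replicate order. SDY replicates 1, 3 and 4 lay above all controls and replicates 2 and 5 at control level, for a log2 fold change of 0.92 (SE 0.30). The proton pump gene atp6v1a had 0.54 (SE 0.23) and the carbonic anhydrase gene cahz -1.26 (SE 0.42). Control replicate 5 had the most counts for cahz, as for the red blood cell list members ank1a, sptb and epor. Without that library cahz had -0.82, and whether its transcripts came from epithelium or blood was not tested. Junction genes had a median of -0.11, and jam3, at about 1 CPM, had groups without overlap (-1.10, SE 0.34). Without control replicate 4 the junction median was -0.12. Of 30 members, 5 were then lower at an unadjusted edgeR p under 0.05 (background 9.25%) and 2 higher (background 10.5%). Goblet cell genes had a median of -0.02. The goblet cell stress sensor gene ern2 had 23.7, 24.8, 23.8, 28.8 and 27.9 CPM in the controls and 22.6, 21.3, 22.4, 17.8 and 22.6 CPM under SDY, in replicate order. The groups did not overlap, SDY replicate 4 was the lowest library, and the log2 fold change was -0.27 (SE 0.11). Gut hormone genes had a median of -0.10, with the granule protein gene scg2b at -0.98 (SE 0.34). The gut hormone median was -0.20 without control replicate 4 and turned to 0.05 without SDY replicate 4. Without control replicate 4, the amino acid transporter median turned to 0.01.

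Sterol and fatty acid synthesis genes were below 0 for 34 of 38, and the median was -0.39. The feedback regulator gene insig1 had 32.7, 40, 20.8, 49.6 and 32.5 CPM in control replicates 1 to 5 and 20.3, 13.5, 21.9, 25.5 and 12.9 CPM in SDY replicates 1 to 5. The lowest control, replicate 3, lay within the SDY range, and the log2 fold change was -0.90 (SE 0.26). The transcription factor gene srebf1 had 182, 127, 72.6, 90.8 and 177 CPM in the controls and 72.1, 118, 61.8, 50.1 and 88.2 CPM under SDY, in replicate order. SDY replicates 1, 3 and 4 lay below all controls, and the log2 fold change was -0.74 (SE 0.31). For the sterol enzymes, control replicates 2 and 4 stood apart. The gene lss, lanosterol synthase, had 14.9 and 21 CPM in these libraries, 0.454 to 1.5 CPM in the other controls and 0.881 to 4.07 CPM under SDY. Leaving out control replicate 4 gave a list median of -0.16, and leaving out the pair turned it to 0.21.

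Other metabolic lists had medians near 0 with all libraries, namely 0.07 for amino acid synthesis and breakdown, -0.01 for nucleotides, 0.03 for glycolysis and glycogen, 0.03 for vitamins, 0.08 for iron, copper and zinc and 0.14 for antioxidants. The nucleotide median turned, without control replicate 4, to 0.24, with 32 of 43 members above 0 and 8 at an unadjusted edgeR p under 0.05 on that side, against a background of 10.5%. The amino acid median went to 0.23, with 11 of 50 members higher at such a p, and to 0.31 without control replicates 2 and 4. The glycolysis median was 0.11 without control replicate 4, and those of the other 3 lists were 0.03, 0.11 and 0.12. In vitamin A handling, genes lay on different sides. The retinoic acid synthesis gene aldh1a2 had 109.8 ± 19 CPM on the control diet and 177 ± 70.2 CPM on SDY (mean ± SD, n = 5 a diet) and a log2 fold change of 0.69 (SE 0.28), while the breakdown enzyme gene cyp26b1 had -0.91 (SE 0.34) and the retinol carrier gene rbp4, whose span overlaps pde6c, had -0.58 (SE 0.20). For nucleotides, entpd1, the ectonucleotidase CD39, had 20 ± 6.88 CPM on the control diet and 32.3 ± 9.18 CPM on SDY (mean ± SD, n = 5 a diet) and a log2 fold change of 0.69 (SE 0.26). In glycolysis, pgk1 had 0.32 (SE 0.14), ldhba -0.58 (SE 0.26) and pfkfb4b -0.39 (SE 0.17). The zinc importer gene slc39a4 had -1.09 (SE 0.47), the copper chaperone gene ccs 0.36 (SE 0.15) and the ferritin gene fth1b -0.86 (SE 0.29) without overlap. Extracellular superoxide dismutase gene sod3 had 9.59 ± 2.15 CPM on the control diet and 6.4 ± 0.638 CPM on SDY (mean ± SD, n = 5 a diet) and a log2 fold change of -0.58 (SE 0.17) without overlap, and gpx8 had -0.59 (SE 0.20). The spans of sod3 and gpx8 each overlap another gene.

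Growth and stress lists were also close to the median of all genes. Insulin, IGF and mTOR genes had -0.03, with rragc above and the growth hormone receptor gene ghr (-0.61, SE 0.20) and igfbp3 (-0.54, SE 0.23) below 0. Apoptosis and p53 genes had 0.08, and bbc3, the death gene PUMA, had 15.5, 13.7, 13.8, 12.3 and 13.5 CPM in the controls and 10.9, 10.9, 9.62, 9.51 and 9.85 CPM under SDY, in replicate order. All SDY values of bbc3 lay below all controls, for a log2 fold change of -0.44 (SE 0.11). Lysosome and autophagy genes had 0.04. Here gaa, acid alpha-glucosidase, had 5.77 ± 1.59 CPM on the control diet and 12.3 ± 6.2 CPM on SDY (mean ± SD, n = 5 a diet) and a log2 fold change of 1.08 (SE 0.39), and the autophagy receptor gene nbr1b (-1.65, SE 0.71) was highest in control replicate 2, at 99.96 CPM, with no other library above 17.7 CPM. The span of nbr1b overlaps another gene. Immediate early genes had 0.05 and circadian clock genes -0.10. The medians of these 5 lists without control replicate 4 were, in the order given, -0.12, 0.13, 0.01, 0.13 and -0.21.

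Pancreas and liver cell markers were highest in control replicate 2, while red blood cell and adipocyte markers were present in all libraries. The exocrine pancreas list had a median of -1.59 over 5 tested members and 0.06 without control replicate 2. Its member cpb1, a digestive carboxypeptidase gene, had 1045 CPM in that library. The hepatocyte list had a median of -0.58 and -0.05 without it, and its fibrinogen genes fgb and fgg had 18.7 and 12.8 CPM there and at most 1.08 CPM elsewhere. Red blood cell genes, at 268 to 432 summed CPM in the controls and 259 to 389 under SDY, had a median of -0.18, with ank1a (-1.07, SE 0.30), sptb (-0.62, SE 0.26) and epor (-0.68, SE 0.31) at an unadjusted edgeR p under 0.05. These were 3 of 17 tested members, against 4.88% of all genes lower at such a p. Control replicate 5 had the most counts for ank1a, sptb and epor. Without it they had -0.84, -0.39 and -0.36, and the list median was -0.04. Adipocyte genes had -0.06, with lpl at -0.44 (SE 0.20), and the 4 tested interrenal, chromaffin and renal genes -0.07. The summed adipocyte level was 336 CPM in control replicate 4, 2194 to 4081 CPM in the other controls and 1020.5 to 5014 CPM under SDY, and the list median without that library was -0.19.

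The diet effect was compared with that of the other tissues in a single edgeR fit of 28 libraries. Head kidney control replicates 1 and 3 were left out because, in earlier results of these data, the former was nearly empty and the latter carried liver transcripts. The difference of intestine minus liver passed for 2 of 20296 genes (0.00985%). The AP-1 transcription factor gene fosl2 had 40.9, 56.2, 53.3, 56.6 and 44.7 CPM in the controls and 42.8, 55.7, 50.7, 59.7 and 40.1 CPM under SDY, in replicate order. These intestine groups overlapped almost wholly, with a log2 fold change of -0.02 (SE 0.15). In liver its log2 fold change was 2.69, and the difference was -2.70 (SE 0.43, edgeR adjusted p = 0.0233). For hemk1, a methyltransferase gene, the log2 fold change was -0.39 in intestine and 1.23 in liver, and the difference was -1.61 (SE 0.26, edgeR adjusted p = 0.0233). The cytokine brake gene socs3 came next, with a difference of -3.34 (SE 0.60) that missed the threshold at an edgeR adjusted p of 0.0549. Intestine minus head kidney passed for 1 gene (0.00493%), the unnamed LOC115584268, with a difference of 10.44 (SE 1.68, edgeR adjusted p = 0.0332). In intestine this gene had 77 counts in SDY replicate 1 and at most 13 in any other library, while in head kidney it had 214 to 302 counts in the 3 controls used and at most 1 under SDY. With all 30 libraries, 4 genes passed against liver and 208 against head kidney.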

How the data were processed

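Poly(A) RNA of sea bream tissues was sequenced from directional libraries, per the labels' protocols. Reads were trimmed with Trim Galore 0.4.4, aligned with HISAT2 2.1.0 and counted with featureCounts 1.5.3, per the submitters' processing notes. The deposited counts per gene are whole numbers of reads, not normalized, on assembly fSpaAur1.1; per the file headers, whole mRNA spans were counted without a strand option and reads in overlapping genes were given to each, so intron reads and antisense neighbours enter the values. Of all genes, 15.3% overlap another, and such named genes are marked. Of 25722 identifiers, 15331 had a symbol, 5135 of them through the RefSeq table of the species.

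From these counts, edgeR 4.0.16 (R 4.3.3) was run in intestine alone (5 against 5, TMM scaling, filterByExpr, quasi-likelihood test, Benjamini-Hochberg adjustment over all genes tested), and fold changes are SDY over control on the log2 scale. The tissue contrast used 6 group means over 28 libraries. DESeq2 1.42.0, limma 3.58.1 voom, other scalings and filters, a replicate block and leaving out libraries were alternatives. The scripts were tested on simulated counts. Depth was 15566900 to 20580440 counts, which leaves genes near 1 CPM with few reads and wide errors. No 2 libraries of a group agreed within sampling noise.

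Named genes were the 12 with the smallest edgeR p in each direction, up to 8 DESeq2 calls in each direction, up to 3 members of each list at an unadjusted p under 0.05, the 6 largest differences without overlap in each direction, 2 unnamed genes in each direction and 3 per tissue contrast. Members and the 51 lists were chosen with earlier results of these data known. Some list members are not reported here.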

Additional observations from a re-analysis of the deposited data

Results flagged for a closer look

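Of 310 groups of 5 values examined (named genes and summed lists, per diet), 42 held a library far from the other 4. The cutoff flags about 1 in 20 groups of independent, normally distributed values. These CPM values need not be normal, and genes and lists moved together in a library, so no excess over chance is read from the 42. Values are TMM-scaled CPM for genes and plain summed CPM for lists.

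Control replicate 4 was the distant library for 16 of these. It was highest for cables2b (3.59 CPM), hao2 (16.0 CPM), gsto1 (64.4 CPM), dnajc3b (59.9 CPM), fth1b (3.50 CPM) and socs3 (108 CPM), and lowest for sost (12.4 CPM) and gpx8 (2.87 CPM). Among lists it was highest for the proteasome (7432 CPM), ubiquitin conjugation (5147 CPM), endoplasmic reticulum chaperones (7200.5 CPM), translation factors (10415 CPM), DNA replication and mitosis (4289 CPM), junctions (2699.6 CPM) and the list named red blood cells (432 CPM). It was lowest for the circadian clock (1236 CPM). Most markers of red blood cells did not follow the sum of their list. By plain CPM, control replicate 4 was the lowest control for gata1a (0.729 CPM) and slc4a1a (1.90 CPM). It was near the lowest for alas2 (5.15 CPM) and hemgn (38.1 CPM), and the highest for gata1 (0.486 CPM).

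Control replicate 2 stood highest for jakmip2 (2.81 CPM), gfra1a (12.9 CPM), timp2b (30.7 CPM), nbr1b (99.96 CPM), fgb (18.7 CPM), fgg (12.8 CPM) and the smooth muscle (4948 CPM) and exocrine pancreas (1374 CPM) lists, and lowest for ccl19a.1 (32.3 CPM). Control replicate 5 stood highest for slc35e3 (71.1 CPM), cxcl13 (4.44 CPM) and gaa (8.55 CPM) and lowest for tlr3 (13.9 CPM). Control replicate 1 stood highest for casq2 (0.785 CPM).

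On the SDY diet, replicate 1 stood highest for cxcl13 (51.0 CPM), ccl19a.1 (272 CPM) and c8h12orf75 (3.47 CPM) and lowest for etfa (109 CPM). Replicate 2 stood highest for st6gal1 (7.02 CPM) and the antioxidant list (6863 CPM). Replicate 3 stood highest for nme7 (23.4 CPM). Replicate 4 stood highest for the brush border (9596 CPM) and extracellular matrix (3738 CPM) lists and lowest for ern2 (17.8 CPM). Replicate 5 stood highest for vip (23.7 CPM) and cyp26b1 (1.35 CPM).

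The diet effect differed between tissues, by a test of the difference itself, for fosl2 (-2.70, intestine minus liver, log2 scale), hemk1 (-1.61, intestine minus liver) and LOC115584268 (10.44, intestine minus head kidney).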

How the results depend on the processing

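The number of genes at the adjusted threshold was 0 by edgeR under other scalings, filters, a shared spread and the replicate block, and by limma voom (lowest adjusted p 0.175), and 55 by DESeq2. Leaving out 1 library gave 0 to 3 genes, with 3 without SDY replicate 2 and 1 without SDY replicate 1. The count at an unadjusted p under 0.05 was 3697 by voom, 2408 without control replicates 2 and 4, and 719 (without control replicate 2) to 3637 (without control replicate 4) when 1 library was left out, against 1185. Groups without overlap numbered 151, 1434 without that pair, and 194 to 1088 without 1 library, fewer libraries making overlap rarer by construction. The tissue difference passed for 4 genes against liver with all 30 libraries and 0 with 29, and against head kidney for 208, 126 and, with at least 1 CPM in 5 libraries, 0; the cause was not tested. The log2 fold change changed sign for nbr1b (0.082 without control replicates 2 and 4), fgb (-2.95 to 0.10 without 1 library), socs3 (0.22 without the pair, -0.73 to 0.18 without 1 library) and fosl2 (0.0014 by DESeq2, 0.041 by voom, 0.11 without the pair, -0.078 to 0.054 without 1 library). With the replicate block, 0 genes passed and 1382 had an unadjusted p under 0.05; the correlations of same-numbered libraries were -0.09, 0.16, -0.12, 0.47 and -0.02, number 4 alone correlating best with its own. DESeq2 called 19 of the named genes that edgeR tested.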
